A study of Rattus norvegicus with 4 samples.

Results

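Wnt signaling genes were followed in rat colon after mesenchymal stem cell transplantation (MSCT). The 10 genes are the ligands Wnt4 and Wnt5a, the receptors Fzd1, Fzd2, Fzd3 and Fzd4, the secreted antagonists Sfrp4 and Dkk3, and the intracellular scaffolds Axin1 and Axin2. Each was found as the row of the deposited table whose RefSeq transcript belongs to that gene symbol. All 10 had a value on all 4 arrays, with 1 row per gene, among 18350 measured rows of which 7068 could be named.

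The control group comprised 2 male rats without transplantation and the MSCT group 2 male rats given mesenchymal stem cells (MSCs), with 1 one-color Cy3 array of colon RNA per rat. In the study, Sprague Dawley rats received 2,4,6-trinitrobenzene sulfonic acid (TNBS), a chemical that inflames the colon and models inflammatory bowel disease (IBD), and MSCs carrying green fluorescent protein followed through the tail vein. The sample descriptions call the control rats normal, whereas the paper and part of the series text call them IBD rats without cells, so whether they received TNBS is not settled here. The sources differ on the day of sampling and give no age. The tissue was taken at the lesion and holds epithelium, muscle, stroma, nerve and leukocytes together, host and donor cells alike, so fewer cells of a type and less RNA per cell cannot be told apart.

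Wnt proteins are secreted lipid-modified signals that bind Frizzled receptors on neighboring cells. In the canonical branch, binding halts the destruction complex, which is built on an Axin scaffold, and β-catenin then enters the nucleus and works with TCF/LEF factors. This branch keeps the crypt stem cells of the colon dividing. In the non-canonical branch, of which Wnt5a is the prototype, Frizzled receptors act on cell polarity, movement and calcium without β-catenin. Antagonists such as the secreted Frizzled-related proteins bind Wnts outside the cell, and Axin2 is itself switched on by β-catenin, so that its transcript is a common readout of canonical signaling.

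The RefSeq promoter table (GRCr8) had an entry for 5 of the 10 genes (Wnt4, Wnt5a, Fzd1, Fzd4 and Axin2), and of these 5 only Axin2 had a TCF/LEF core motif in the window examined. The motif searched was CTTTG followed by A or T at each of the next 2 positions, on both strands and with no other motif, in the 250 bases before the start given there. Of 33469 such windows, 14.9% held at least 1 of these motifs and 1.73% held 2 or more. The window of Axin2 held 2, both on the + strand of chromosome 10, beginning 232 and 132 bases before the start. Each is shown within 30 bases with the motif in capitals. Whether they act on Axin2 was not tested.
Axin2, chr10:94398542-94398571: tcagatttcgcCTTTGAAaaagctgtgtcg
Axin2, chr10:94398642-94398671: ttactttcttgCTTTGATgttgggtagatc
The starts used for Axin2, Wnt5a and Wnt4 lie inside the annotated spans of these genes, so their windows lie wholly or partly within the genes. A match describes the letters of this window only.

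Among the 10 genes, both ligands and both antagonists lay higher in the MSCT group and all 4 Frizzled receptors lower in their means (Fzd2 not without control replicate 1), with Axin1 higher and Axin2 lower (not without MSCT replicate 2). The 95% interval of the difference crossed 0 for 8 of the 10 genes. Wnt5a was 1.96-fold higher and Dkk3 1.44-fold higher, and limma gave only these an unadjusted p under 0.05. That is 2 of 10 genes (20.0%), both higher, where 12.0% of all rows had such a p, 4.80% with a higher and 7.17% with a lower level in the MSCT group. No gene of the 10 passed the study's screen of an unadjusted p under 0.05 with a change over 2-fold, which 4.63% of all rows passed (2.12% higher and 2.51% lower). After adjustment over all rows by limma no row was left under 0.05 (0%). The paper's methods name no test for the arrays, and a plain t-test with equal variances was run beside limma. This plain t-test gave the same counts for the 10 genes, 2 before adjustment (9.66% of all rows) and 0 after it. The smallest two-sided p of an exact permutation is 0.33 in a design of 2 arrays against 2, and the limma values depend on a variance shared between rows.

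**Figure D1:**
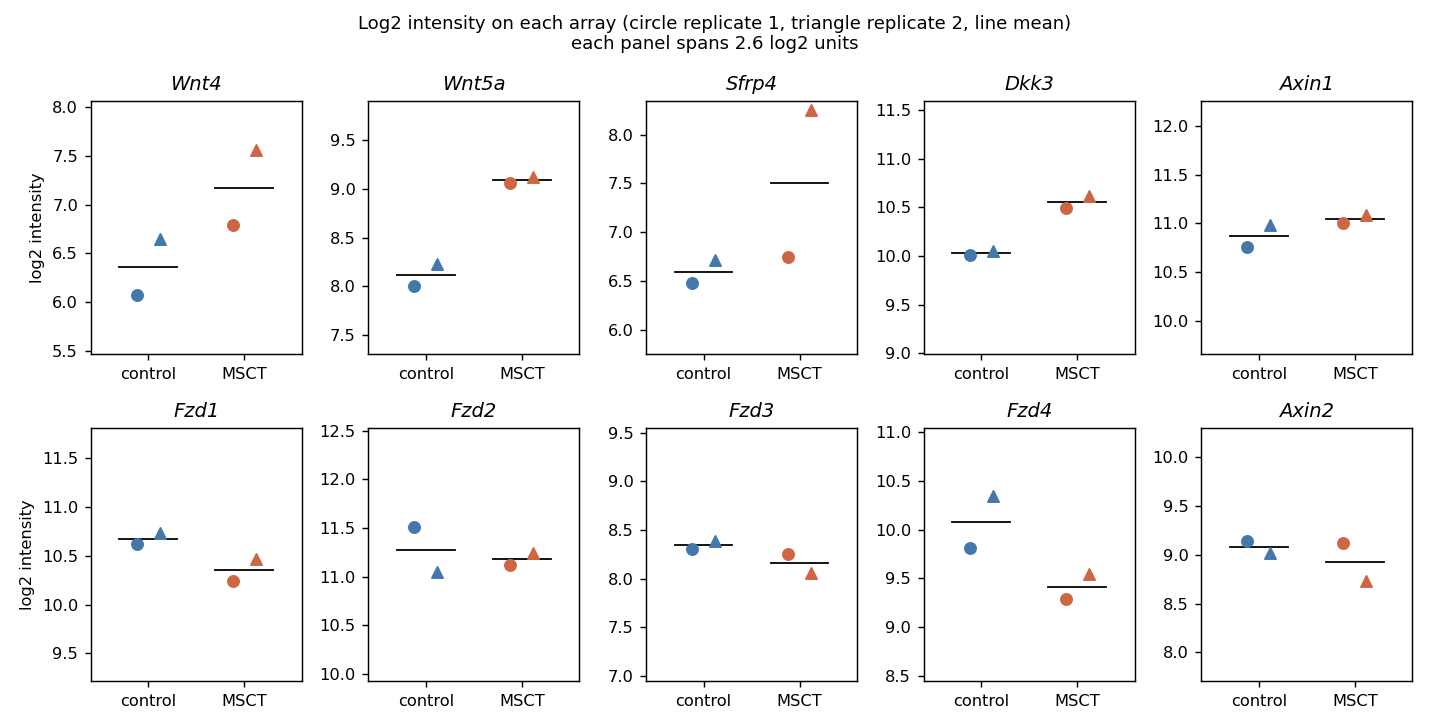
Log2 intensity (vertical axis) of each gene on the 2 control and 2 MSCT arrays, 1 panel per gene with the same span of log2 units and a center of its own. Circles are replicate 1, triangles replicate 2 and lines group means. The MSCT arrays of Wnt5a (9.06 and 9.12) and Dkk3 (10.50 and 10.62) lie together above their controls, whereas the MSCT arrays of Sfrp4 lie far apart (6.74 and 8.26).

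The 4 arrays fell into groups that did not overlap in 8 of the 10 genes (80.0%), against 45.8% of all rows. In 5 genes both MSCT arrays lay above both control arrays (Wnt4, Wnt5a, Sfrp4, Dkk3 and Axin1; 21.3% of all rows), and in 3 both lay below (Fzd1, Fzd3 and Fzd4; 24.5% of all rows). The arrays overlapped for Fzd2 and Axin2. The mean was higher in the MSCT group for 5 of the 10 genes, beside 48.0% of all rows. The median log2 difference of the 10 genes was 0.038, against -0.019 over all rows.

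Of the ligands, Wnt5a is secreted in the intestine mainly by the mesenchyme under the epithelium. Its intensity read 257 and 301 in the control rats (replicate 1, then 2) and 533 and 558 after MSCT. Both MSCT arrays were therefore well above both controls, and the gap between the groups exceeded the gap within either one (0.23 and 0.066 on the log2 scale). The log2 difference was 0.97 (95% interval 0.45 to 1.498; limma adjusted p = 0.289), larger than that of 96.7% of all rows. It stayed between 0.86 and 1.09 with each array left out in turn, with an unadjusted p under 0.05 each time. It passed 2-fold, and so the screen, after quantile normalization (1.03), with equal array medians (1.01), without control replicate 2 (1.09) and without MSCT replicate 1 (1.01).

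Wnt4 is a ligand that can signal through either branch, depending on the receptors present. It read 67.2 and 100.03 in the control rats and 111 and 188 after MSCT. The groups did not overlap, but the higher control array lay close to the lower MSCT one. The log2 difference was 0.82 (95% interval -0.17 to 1.80; limma adjusted p = 0.477). It ranged from 0.43 without MSCT replicate 2 to 1.201 without MSCT replicate 1, where its unadjusted limma p was under 0.05. Wnt4 was among the dimmest rows of the array, with a mean above that of 1.29% of rows only, and in the dimmest 25% of rows the median SD within groups was 0.47 on the log2 scale.

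Wnt7b, the only other ligand measured of a list of 19, had a log2 difference of 0.021. Its arrays varied within both groups, from 6.31 to 8.39 among the controls and from 6.66 to 8.08 in the MSCT group on the log2 scale. The remaining 16 ligands, Wnt3a and Wnt11 among them, were not matched to a row by transcript and were not analysed here. Wls, the carrier that brings Wnts to the cell surface, differed by -0.24 (limma adjusted p = 0.816), and Notum, a secreted enzyme that removes their lipid, by 0.46 (limma adjusted p = 0.711).

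Frizzled receptors are multi-pass membrane proteins that hold Wnts with a cysteine-rich domain outside the cell. Fzd4, which is also the receptor of Norrin in blood vessels, had the largest difference of the 4. It read 899 and 1299 in the control rats and 626 and 744 after MSCT. Both MSCT arrays lay below both controls, and the controls themselves were 0.53 apart on the log2 scale. The log2 difference was -0.66 (95% interval -1.37 to 0.050; limma adjusted p = 0.439), lower than all but 9.75% of rows. Without control replicate 1 it was -0.93, with an unadjusted limma p under 0.05, and without control replicate 2 it was -0.40.

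Fzd1, a receptor of the canonical branch, read 1570 and 1702 in the control rats and 1212 and 1421 after MSCT. Its log2 difference was -0.32 (95% interval -0.85 to 0.22; limma adjusted p = 0.577). Fzd3, known for guiding axons and for cell polarity, read 316 and 334 in the control rats and 306 and 267 after MSCT. For both genes both MSCT arrays lay below both controls, and both intervals crossed 0. The difference of Fzd3 was -0.18 and its interval ran from -0.70 to 0.33 on the log2 scale (limma adjusted p = 0.727), so that a fall or a rise of over 2-fold lies outside it. Fzd2, a receptor that can bind Wnt5a, read 2912 and 2118 in the control rats and 2232 and 2416 after MSCT. Both MSCT arrays of Fzd2 lay between the controls, the difference was -0.097 (95% interval -0.74 to 0.54; limma adjusted p = 0.892), and it turned to 0.13 without control replicate 1.

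Of the list of 10 Frizzled genes, 7 were measured, and the other 3 measured members did not all lie on the side of Fzd1 to Fzd4. Fzd9 lay at 6.71 and 6.80 in the control rats and at 7.16 and 7.90 after MSCT on the log2 scale, a difference of 0.78 (limma adjusted p = 0.438). Fzd5, a Frizzled of the intestinal epithelium, differed by 0.25 (limma adjusted p = 0.740) and Fzd8 by -0.11 (limma adjusted p = 0.909). With the default fit to all rows, no Frizzled gene had an unadjusted limma p under 0.05. Fzd4 did without the lower 25% of rows and with the trend and robust options of limma, among other settings. The co-receptor Ryk, which binds Wnt5a, differed by 0.12 (limma adjusted p = 0.903). Lgr4, a receptor of the R-spondins that amplify Wnt signals, differed by -0.37 (limma adjusted p = 0.507), with an unadjusted p under 0.05 by the plain t-test only.

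**Figure D2:**
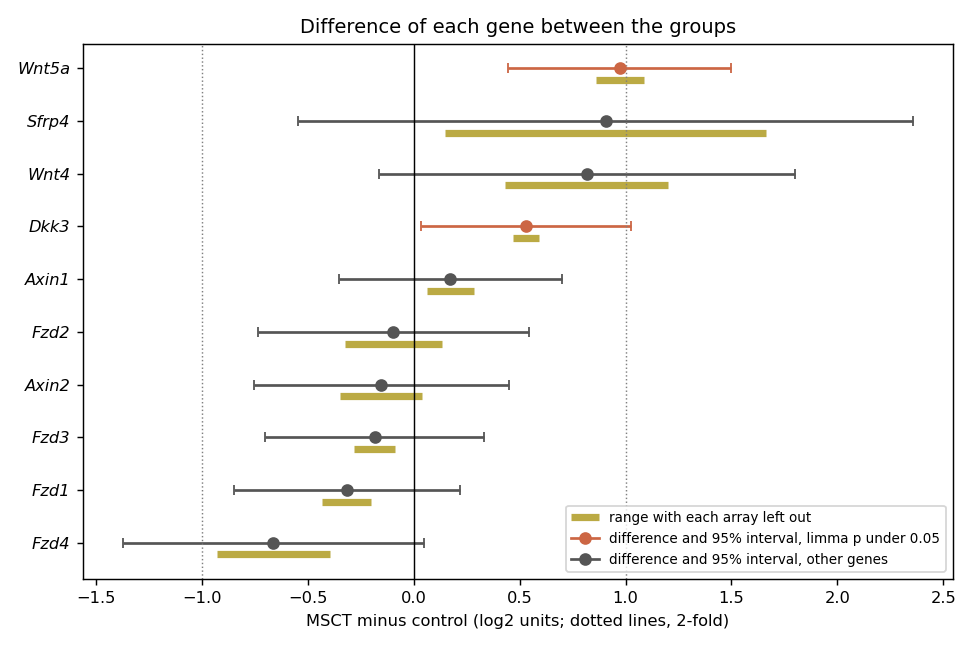
Log2 difference of MSCT minus control for each gene (points) with its 95% interval from limma (thin bars) and the range of the difference with each array left out (thick bars). The intervals of Wnt5a (0.45 to 1.498) and Dkk3 (0.033 to 1.02) lie above 0, those of the other 8 genes cross it, and the range of Sfrp4 (0.15 to 1.66) is the widest.

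Of the antagonists, Dkk3 is a divergent Dickkopf protein whose action on Wnt receptors is less settled than that of its relatives. It read 1029 and 1061 in the control rats and 1443 and 1572 after MSCT. Replicates agreed closely in both groups, with gaps of 0.044 and 0.12 on the log2 scale. The log2 difference was 0.53 (95% interval 0.033 to 1.02; limma adjusted p = 0.399). It stayed between 0.47 and 0.59 with each array left out, but its unadjusted limma p was over 0.05 in each of those 4 fits.

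Sfrp4 is a soluble protein that carries a Frizzled-like domain and binds Wnts away from the cell. It read 89.1 and 105 in the control rats and 107 and 306 after MSCT. MSCT replicate 1 thus lay at the level of the controls, and the higher group mean rested on MSCT replicate 2. The log2 difference of 0.91 (95% interval -0.55 to 2.36; limma adjusted p = 0.561) fell to 0.15 without that array and was 1.66 without MSCT replicate 1, where its unadjusted p was under 0.05 and the lone MSCT array is assumed to vary like the controls. Sfrp4 also lies in the dimmest 25% of rows.

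Only 4 of 17 antagonist genes were measured, and the other 2 lay on the opposite side. Sostdc1, a secreted protein that binds BMPs and the Wnt co-receptors, lay at 9.56 and 9.68 in the control rats and at 8.35 and 8.87 after MSCT on the log2 scale. Its difference was -1.01, just past 2-fold, and it passed the screen by limma (limma adjusted p = 0.324). By the plain t-test it was not under an unadjusted p of 0.05. Kremen1, a receptor of Dickkopf proteins, differed by -0.42 (limma adjusted p = 0.634). Sost and Apcdd1 had blank rows.

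**Figure D3:**
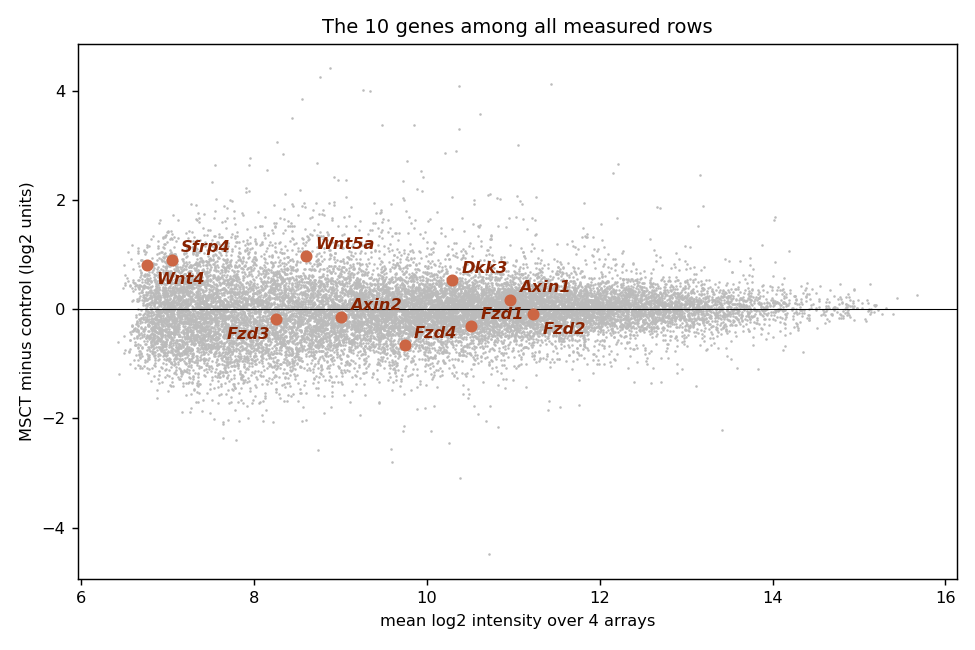
Log2 difference of MSCT minus control (vertical axis) against the mean log2 intensity over the 4 arrays (horizontal axis) for all 18350 measured rows (gray) and the 10 genes (orange, named). The spread of the gray points is widest at low intensity, where Wnt4 and Sfrp4 lie, whereas Wnt5a and Dkk3 lie higher up the scale with differences of 0.97 and 0.53.

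The Axins hold the destruction complex together. Axin1, the constant scaffold, read 1734 and 2020 in the control rats and 2050 and 2172 after MSCT, a log2 difference of 0.17 (95% interval -0.35 to 0.70; limma adjusted p = 0.747). Axin2, the scaffold induced by β-catenin, read 566 and 519 in the control rats and 558 and 426 after MSCT. MSCT replicate 1 of Axin2 fell between the controls and MSCT replicate 2 below them. The log2 difference of Axin2 was -0.15 (95% interval -0.76 to 0.45; limma adjusted p = 0.808), and it turned to 0.041 without MSCT replicate 2. A change of Axin2 over 2-fold in either direction lies outside this interval, whereas a small fall or a small rise lies inside it.

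The other measured genes of the destruction complex and Dishevelled (9 genes) had differences from -0.29 for Gsk3b to 0.088 for Gsk3a. None had an unadjusted p under 0.05 by limma or the plain t-test. In the median they differed by -0.024. Among them, Csnk1d, a kinase of the complex, differed by -0.17 and Dvl1, which relays the Frizzled signal, by -0.15. The 5 nuclear factors measured lay between -0.38 for Tle3 and 0.22 for Tle4, corepressors that bind TCF/LEF factors, and Tle5 at -0.18. None of the 5 had a limma p under 0.05, and 1 did by the plain t-test (Tle4).

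The target genes of canonical signaling held 5 of the 6 other pathway genes with an unadjusted limma p under 0.05. Apart from Axin2, 12 of them were measured. By limma, 5 of these (41.7%) were under an unadjusted p of 0.05, 4 higher and 1 lower in the MSCT group, against 12.0% of all rows. The list was chosen with earlier results of these data known, so this share is a description only. The plain t-test put 4 of the genes under an unadjusted p of 0.05, with Fosl1, Plaur and Jun among them but not Myc and Cd44. The other was Ccnd1, a cyclin of the cell cycle, which was higher without overlap (0.42, limma adjusted p = 0.474). Fosl1, a subunit of the AP-1 transcription factor, lay at 6.49 and 7.26 in the control rats and at 8.82 and 8.53 after MSCT on the log2 scale. Its difference was 1.80 (limma adjusted p = 0.269). Plaur, the urokinase receptor, differed by 1.04 (limma adjusted p = 0.276), and both genes passed the screen. Myc, a growth regulator, differed by 1.00 (limma adjusted p = 0.324) and Cd44, an adhesion receptor, by 0.99 (limma adjusted p = 0.412), both just under 2-fold. Jun, the other AP-1 subunit of the list, differed by -0.83 (limma adjusted p = 0.298). Ascl2, a factor of crypt stem cells, differed by 0.24 (limma adjusted p = 0.712), and Lef1, a nuclear partner of β-catenin, by -0.073 (limma adjusted p = 0.932).

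In the non-canonical branch, the effectors that act below Wnt5a were measured by 16 genes. By limma none was under an unadjusted p of 0.05, and 1 (Plcb3, -0.34) was by the plain t-test. Of the 16, 8 genes were higher and 8 lower, with a median difference of 0.025. Camk2b (1.68), Camk2a (1.08) and Plcb3 had the largest differences, and both kinases were far dimmer in control replicate 1 than in the other rats. Rhoa, Rac1 and Cdc42, the small GTPases of the branch, differed by 0.12, 0.078 and -0.037.

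Over all 50 other pathway genes measured of 139 listed, limma put 6 (12.0%) under an unadjusted p of 0.05, which is the share of all rows. Of these 6, 4 were higher and 2 lower. The plain t-test put 7 of the 50 under an unadjusted p of 0.05, and 9.66% of all rows. The median difference of the 50 genes was -0.0051, and 22 (44.0%) had groups that did not overlap, against 45.8% of all rows. Of the 139, 4 had blank rows and 85 no row matched by transcript.

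**Figure D4:**
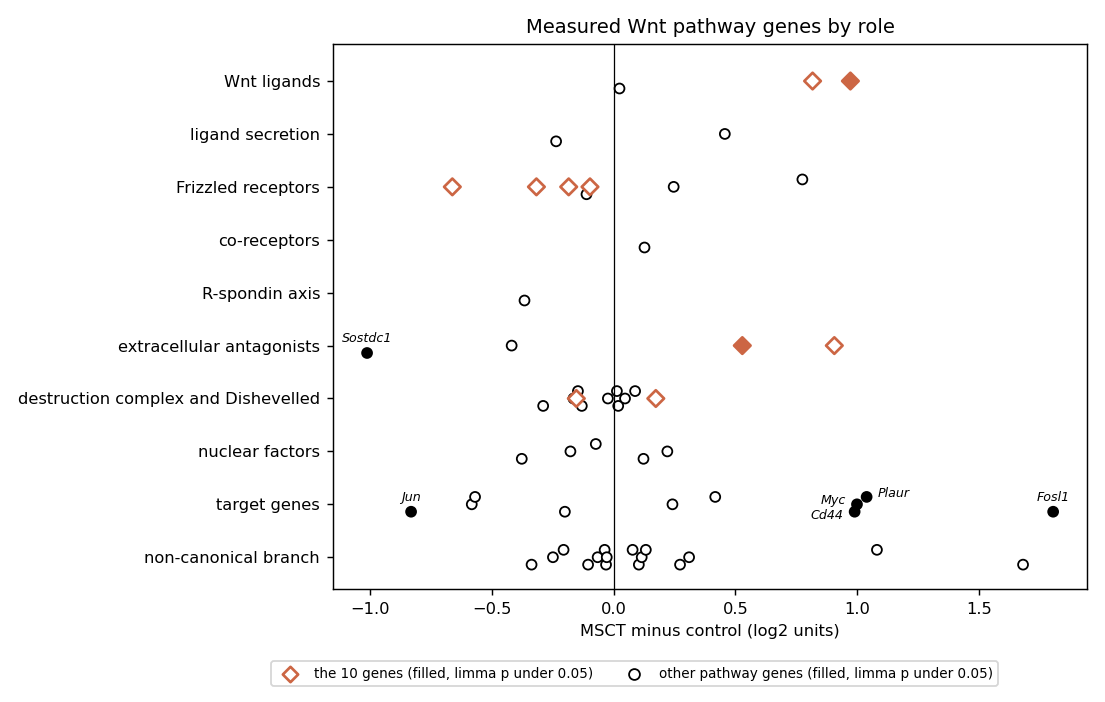
Log2 difference of MSCT minus control (horizontal axis) for the measured Wnt pathway genes in rows by role, each gene under the first role that lists it. Diamonds are the 10 genes and circles the other 50, filled where the unadjusted limma p was under 0.05. The filled circles are Sostdc1 (-1.01) among the antagonists and Jun, Cd44, Myc, Plaur and Fosl1 (-0.83 to 1.80) among the target genes.

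The genes whose 4 values were most like those of Wnt5a, each taken against its own mean, were Gprc5a, Creld2, Slc35e4, Serpinf1 and Fyn, at Euclidean distances from 0.082 to 0.15 on the log2 scale among 6967 other named genes. Their differences lay between 0.88 and 0.98. With 4 arrays such likeness is a description. Among the 10 genes themselves, Fzd3 and Axin2 were closest (0.20).

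Markers of the cell types that make these proteins were read beside the results. The tissue label was borne out by epithelial and smooth muscle markers, which were bright on all arrays (mean log2 intensity from 13.56 to 13.82 over 7 epithelial and from 14.77 to 15.06 over 5 muscle markers). By limma none of these was under an unadjusted p of 0.05. The plain t-test put 2 epithelial keratins under it, Krt20 (0.39) and Krt18 (0.35), and 9.66% of all rows. Without overlap, 4 of the 7 epithelial markers (57.1%) were higher in the MSCT group, against 21.3% of all rows. Cdh1 (-0.027) and Krt19 (-0.053) were lower in the mean, with overlap. Of 5 fibroblast markers measured of 8, Col1a2 alone was under an unadjusted p of 0.05 (by limma only) and was higher in the MSCT group (0.62, limma adjusted p = 0.399), Col3a1 differed by 0.78 (limma adjusted p = 0.443), and Dcn, Lum and Thy1 lay from -0.22 to 0.028. The summed intensity of the fibroblast markers was 45404 and 31020 in the control rats and 46890 and 50295 after MSCT. Their part in the levels of Wnt5a, Dkk3 and Sfrp4 was not tested.

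Of 7 markers of enteric neurons and glia measured of 8, Elavl4 (-1.06), Ret (-0.86) and Uchl1 (-0.54) were lower in the MSCT group with an unadjusted limma p under 0.05. That is 3 of the 7 (42.9%), against 12.0% of all rows, 7.17% with a lower level in the MSCT group. The list was chosen with earlier results of these data known, so this share is a description only. By the plain t-test Uchl1 alone of the 3 was under 0.05, as were 9.66% of all rows. Their list summed to 9592 and 9370 in the control rats and to 7017 and 7035 after MSCT. Of 4 leukocyte markers measured of 8, the macrophage gene Cd68 passed the screen and was higher (1.29, limma adjusted p = 0.260). The groups overlapped for Cd4 (0.37), Cd8a (0.0058) and Cd14 (-0.041). The list summed to 10882 and 12328 in the control rats and to 11818 and 14166 after MSCT, which overlap. Most of these sums came from Cd14, at 9308 and 10814 in the control rats and 8986 and 10578 after MSCT. The 3 endothelial markers measured of 6 summed to 1987 and 1202 in the control rats and to 1845 and 2035 after MSCT, which overlap. The groups also overlapped for each of the 3. The part of these cell types in the Frizzled and target gene values was not tested, and no listed marker with a value was at 0.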

How the data were processed

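Colon RNA of 4 rats was hybridized to one-color NimbleGen arrays. The authors scanned them with a GenePix scanner and deposited 1 linear intensity per RefSeq transcript and array, extracted with NimbleScan. The submitters' processing notes name RMA with no role, and the rule for blank rows is not given in the sources used here. The table has 26420 rows, of which 18350 are filled for each array and 8070 are blank. Median intensities were 883 and 893 on the control and 848 and 882 on the MSCT arrays. Precision is limited by the small number of arrays.

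Intensities were taken as log2 values with no pseudocount, scaling or filter. limma 3.58.1 in R 4.3.3 (lmFit, eBayes) was fitted on all rows with Benjamini-Hochberg adjustment, and was tested on simulated data. Rows were named by transcript through the RefSeq gene table (GRCr8, names only), which matched 96.1% of measured NM and 0.525% of XM rows, and the row with the highest mean stood for a gene. Probe sequences were not used, so signal shared within the Frizzled family was not assessed. Python 3.11.15 was used for names and figures.

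Genes, lists and tests were chosen with earlier results of these data known. Named are the 10 genes, other pathway genes with an unadjusted limma p under 0.05, up to 3 per list with the largest difference, up to 3 markers per list past that p, and the 5 genes nearest to Wnt5a. Others (further Frizzled, target, non-canonical and blank genes and the remaining markers) were chosen after their values were seen. Nothing says how the rats were housed, so p-values measure the spread between these samples. Alternatives were quantile normalization, equal medians, the plain t-test, filters on dim rows, and trend and robust options. Also run were a replicate block, leaving out each array, other rows per gene, a lower fold limit and linear means. RT-PCR and histology were not analysed here.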

Additional observations from a re-analysis of the deposited data

How the results depend on the processing

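Among the 10 genes, the count past the screen of p and 2-fold, 0 with all arrays, was 1 after quantile normalization, 1 with equal array medians and 1 with a limit of 1.5-fold (Wnt5a each time). It ranged from 0 to 3 with each array left out (Wnt5a without control replicate 2, and Wnt4, Wnt5a and Sfrp4 without MSCT replicate 1). The count with an unadjusted p under 0.05 by limma, 2 with all arrays, ranged from 1 to 3 with each array left out, with Wnt5a alone without control replicate 2 or MSCT replicate 2. It was 3 after quantile normalization (with Wnt4), and 3 without the lower 25% of rows and with the trend and robust options (each with Fzd4). Without the lower 50% of rows by intensity it was 1 (Dkk3), where 4 of the 10 genes were left. The count past an adjusted p of 0.05 by limma was 0 under every alternative run, with a smallest adjusted p of 0.123 for Wnt5a without the lower 25% of rows. The median difference turned to -0.13 without the lower 25% of rows, which leaves 8 genes, because Wnt4 and Sfrp4 drop out. Of the other pathway genes, 10 passed an unadjusted p of 0.05 with the trend and robust options of eBayes, against 6, and the cause was not tested. With each array left out this count ranged from 4 to 7. With each array left out, Fzd2 ranged from -0.33 to 0.13 (without control replicate 1) and Axin2 from -0.35 to 0.041 (without MSCT replicate 2). The other 8 genes kept their direction under every alternative run.

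The replicate numbers are shared by the groups but nothing ties the rats, and over all rows the deviations of same-numbered arrays from their group means had an r of 0.23. With the replicate number as a block, 3 of the 10 genes had an unadjusted p under 0.05 by limma (Wnt4, Wnt5a and Fzd4), 0 passed the screen, and Dkk3 was no longer under 0.05. The choice among several rows touched no gene of the 10. Signal over background was not analysed here. The dimmest 25% of rows, with Wnt4 and Sfrp4, varied most between replicates (median SD 0.47, against 0.14 in the brightest 25%).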

Other observations

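Of the kinases that carry calcium signals below Wnt5a, Camk2a lay at 7.10 on control replicate 1 and at 9.57, 9.38 and 9.45 on control replicate 2 and MSCT replicates 1 and 2, on the log2 scale. The brightest of 3 rows of Camk2b was also lowest on control replicate 1, at 9.00, and lay at 11.39, 11.84 and 11.91 on the other arrays. The order of those other arrays differed between the 2 genes. The other 2 rows of Camk2b, which are other transcripts of the gene, differed between the groups by 0.94 and -0.30.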
